A study of Mus musculus with 8 samples.

Results

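The 37 genes described here are markers of liver leukocytes: 11 of Kupffer cells and macrophages, 7 shared by myeloid cells and monocytes, 4 of MHC class II antigen presentation, 6 of B cells and plasma cells, 2 of neutrophils, 4 of T and NK cells and 3 carried by nearly all leukocytes. They are 37 of the 18193 genes that the platform annotation names, and each was read by its brightest probe set. RNA came from whole liver of mice aged 6 weeks, 3 controls, whose genotype is labelled WT, and 5 POMCMfn2KO mice, named for the loss of the mitochondrial fusion gene Mfn2 from the POMC neurons of the hypothalamus. Both groups had a mixed C57Bl/6J, FVB/N and 129 background and free access to chow. The labels do not name the Cre driver, the alleles that the controls carry, or the sex. Values are log2 expression levels on GeneChip arrays, 1 array per mouse, and differences are POMCMfn2KO minus control on the log2 scale.

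Kupffer cells are the macrophages that line the liver sinusoids, where they clear bacteria, dying cells and old erythrocytes from portal blood. Long-lived resident Kupffer cells carry the receptor Timd4, and monocytes that replace them gain Clec4f before Timd4. B cells, T cells, NK cells and neutrophils pass through the same vessels, and cells left in the liver's blood add their RNA to that of the tissue. In whole liver, fewer cells of a type and less RNA per cell cannot be told apart.

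All hepatocyte markers with a named probe set were bright, and the mean level of 8 of them lay between 14.24 and 14.25 in the controls and between 14.20 and 14.28 in POMCMfn2KO. The 10 pancreatic acinar genes had a mean level of 6.05 in every control, of 10.52 and 10.65 in POMCMfn2KO livers 2 and 3, and of 6.07 to 6.35 in the other POMCMfn2KO livers, so results below are also given without livers 2 and 3 where that ends a call. Of 11986 genes tested with limma, 18% were called at an adjusted p under 0.05. Of the 37 markers, 31 were bright enough to be tested. Itgam, Cd79a, Cd79b, Ms4a1, S100a8 and Nkg7 had a mean level under 5.80, the dim level, and their values are given without a test. In 2 of the 31, Jchain and Cx3cr1, the mean over POMCMfn2KO was under the dim level. Both passed the filter only through the controls, and Jchain is among the falls counted next. Of the 31, 11 were called lower in POMCMfn2KO, against 10.9% of all genes tested, and 1, Cd163, was called higher, against 7.02%. The median difference over the 31 was -0.36, beside -0.02 over all genes tested, and 28 of the 31 differences were below 0, against 54.2% of all genes. In 11 of the 31 every POMCMfn2KO liver lay below every control, against 16.5% of all genes, and in 1 every one lay above, against 12%.

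**Figure D1:**
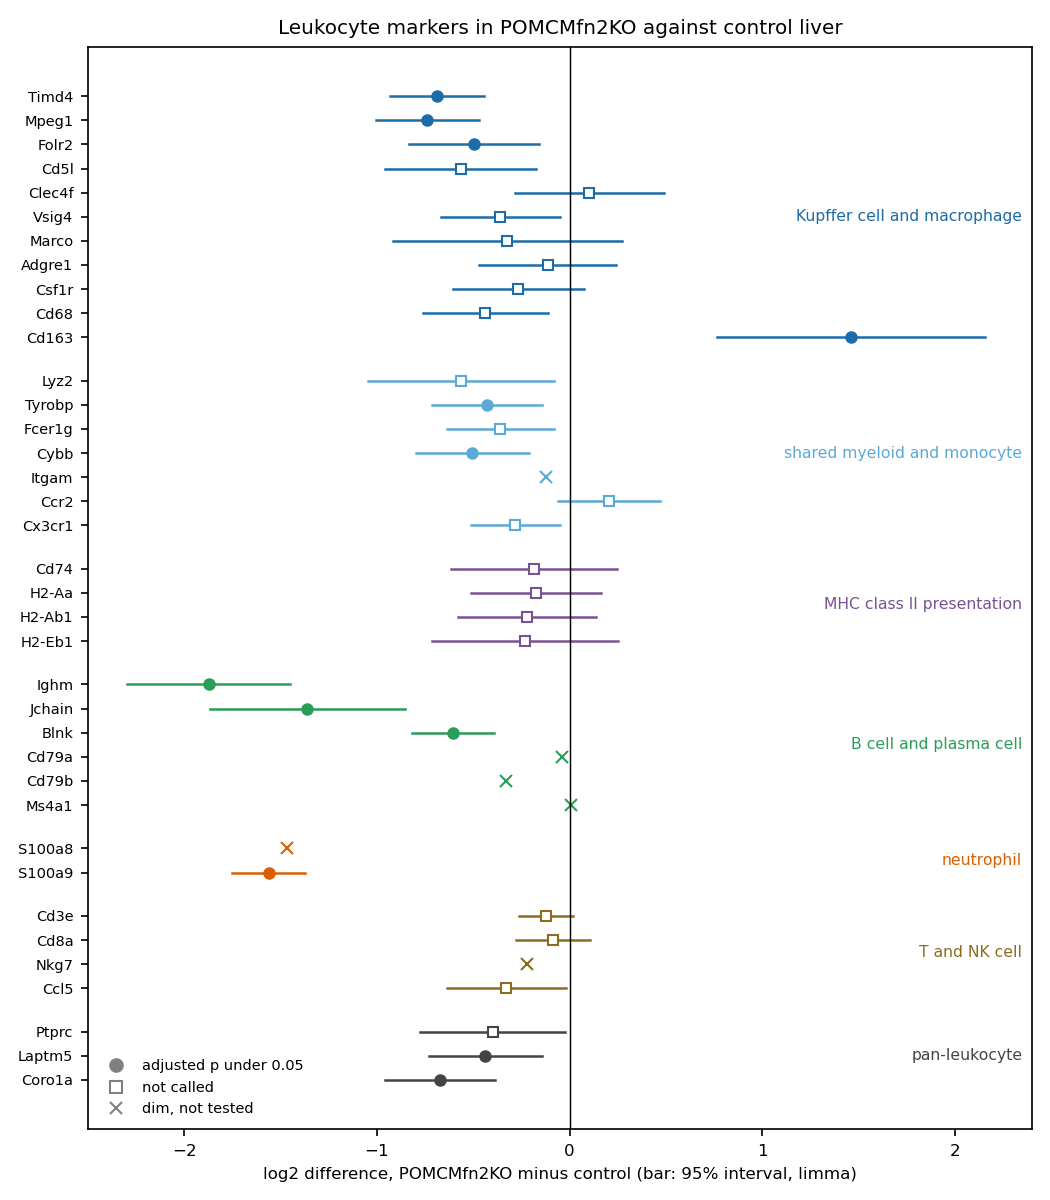
Log2 difference of each marker, POMCMfn2KO minus control, with the 95% interval of the limma fit as a bar; filled circles passed an adjusted p of 0.05, open squares did not, and crosses were too dim to be tested. Ighm (-1.87) and S100a9 (-1.56) had the largest tested falls, and Cd163 (1.46) lies on the other side of 0 from nearly all other markers.

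Among the Kupffer cell and macrophage markers, Timd4, Mpeg1 and Folr2 fell, Cd163 rose, and Clec4f and Adgre1 had differences of 0.10 and -0.11 that did not pass. Timd4, a phosphatidylserine receptor for the uptake of dying cells, had levels of 6.98, 6.61 and 6.77 in controls 1 to 3 and of 6.08, 6.05, 6.13, 5.90 and 6.31 in POMCMfn2KO livers 1 to 5. All 5 POMCMfn2KO livers were below the lowest control. The mean fell from 6.78 ± 0.19 (SD, n = 3) to 6.09 ± 0.15 (n = 5), a 1.61-fold drop (limma, adjusted p = 0.00405). Mpeg1, the pore-forming protein perforin-2 of macrophages, had levels of 10.61, 10.38 and 10.36 in controls and of 9.41, 9.93, 9.78, 9.63 and 9.81 in POMCMfn2KO, again with no overlap. It fell from 10.45 ± 0.14 to 9.71 ± 0.20, 1.67-fold (adjusted p = 0.00439). Timd4 and Mpeg1 were called in every alternative setting in which they were tested, with adjusted p of at most 0.0378 and 0.0335.

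Folr2, a folate receptor of resident macrophages, lay at 8.97, 8.52 and 8.63 in controls and at 7.79, 8.30, 8.32, 8.22 and 8.41 in POMCMfn2KO. The groups did not overlap, but the gap between control 2 and POMCMfn2KO 5 was small, and POMCMfn2KO 1 was the lowest. The fall of 0.50 passed narrowly (1.41-fold, adjusted p = 0.0478) and was lost without any single control, without POMCMfn2KO 2, 3 or 4, without 2 and 3 together, with no filter on dim genes and with the replicate block. Its adjusted p reached 0.192 over these settings.

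Timd4 and Folr2 share a sequence near their starts, a match to the composite element that the macrophage factor PU.1 binds together with an IRF protein. The letters searched were GGAA and GAAA with any 2 bases between them, on both strands, and both genes hold them as GGAAGTGAAA. Their promoters, from 250 bases before to 50 after the RefSeq start in GRCm38.p6, are printed 5′ to 3′ with the match in capitals. The promoter of Cd163, which moved the other way, is printed beside them. Like most of the markers with a promoter, it has no match in this window.
Timd4 promoter, chr11:46810549-46810848, plus strand: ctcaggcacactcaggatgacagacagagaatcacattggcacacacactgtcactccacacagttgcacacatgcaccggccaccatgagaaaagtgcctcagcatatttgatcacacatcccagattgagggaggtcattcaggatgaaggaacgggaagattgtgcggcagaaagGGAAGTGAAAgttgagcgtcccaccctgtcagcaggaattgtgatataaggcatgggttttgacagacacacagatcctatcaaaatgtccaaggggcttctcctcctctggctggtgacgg
Folr2 promoter, chr7:101857141-101857440, minus strand: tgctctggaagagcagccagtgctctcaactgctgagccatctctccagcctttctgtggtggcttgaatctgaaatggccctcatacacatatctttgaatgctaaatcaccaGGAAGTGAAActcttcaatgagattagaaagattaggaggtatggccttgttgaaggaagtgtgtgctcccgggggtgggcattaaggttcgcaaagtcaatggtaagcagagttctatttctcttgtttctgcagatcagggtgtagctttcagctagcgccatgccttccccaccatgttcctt
Cd163 promoter, chr6:124304401-124304700, plus strand: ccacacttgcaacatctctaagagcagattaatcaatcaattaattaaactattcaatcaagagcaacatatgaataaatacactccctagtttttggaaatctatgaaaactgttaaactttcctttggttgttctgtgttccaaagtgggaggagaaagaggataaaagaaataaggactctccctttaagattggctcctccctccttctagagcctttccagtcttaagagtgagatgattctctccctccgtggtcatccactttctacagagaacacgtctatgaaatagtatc
RefSeq promoters were matched for 28 of the 37 markers, and 5 of these, Cd68, Cd8a, Cybb, Folr2 and Timd4, held a match on either strand, against 2.72% of all 32851 promoters in the table. Folr2 has 2 promoters in the table, and the one printed holds the match. Of the 5 genes, Timd4, Folr2 and Cybb fell and Cd68 and Cd8a did not pass. Blnk also fell, and its promoter has no match. The motif was chosen after these sequences were seen, so the match describes the window and is not a test of a factor.

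Cd5l, a secreted lipid-binding protein of Kupffer cells, missed the threshold. Its levels were 11.95, 11.73 and 11.85 in controls and 10.93, 11.27, 11.42, 10.99 and 11.76 in POMCMfn2KO, where only liver 5 reached the range of the controls. The difference was -0.57 (95% interval -0.96 to -0.18, adjusted p = 0.0512). Without POMCMfn2KO 5, a removal that enlarges the fall by construction, it was -0.69 (adjusted p = 0.0118). Over all alternatives its adjusted p ran from 0.0118 to 0.173, the latter without control 1. Cd68, a lysosomal membrane protein of macrophages, lay at 7.58, 7.29 and 7.25 against 6.79, 6.87, 6.98, 6.70 and 7.35, again with only POMCMfn2KO 5 in the control range. Its difference of -0.44 had an adjusted p of 0.0655. Vsig4, the complement receptor by which Kupffer cells catch bacteria, differed by -0.36 (adjusted p = 0.0994), with 4 of 5 POMCMfn2KO livers below every control.

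Csf1r, the receptor for the growth factor on which macrophages depend, differed by -0.27 (95% interval -0.61 to 0.08). The scavenger receptor Marco differed by -0.32 and varied more in POMCMfn2KO, from 6.21 in liver 4 to 7.38 in liver 5, than in controls, from 7.02 to 7.30. A second probe set of Marco gave 0.07. Adgre1, the antigen F4/80, lay at 8.86, 8.52 and 8.61 in controls and at 8.39, 8.49, 8.52, 8.29 and 9.03 in POMCMfn2KO, with a 95% interval for the difference of -0.47 to 0.24. Clec4f, a lectin that in mice is particular to Kupffer cells, lay at 10.31, 10.06 and 10.10 against 10.26, 10.12, 10.40, 9.82 and 10.70, with an interval of -0.28 to 0.49. In Clec4f and Adgre1 the lowest and the highest of all 8 livers were both POMCMfn2KO livers, 4 and 5.

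Cd163, the scavenger receptor that takes up haemoglobin bound to haptoglobin, was the only marker of the 31 that rose. Its levels were 7.13, 6.82 and 6.86 in controls and 8.17, 8.55, 8.41, 7.57 and 9.30 in POMCMfn2KO. Every POMCMfn2KO liver exceeded every control, with liver 4 nearest to the controls and liver 5 farthest. The mean rose from 6.94 ± 0.16 to 8.40 ± 0.63, 2.75-fold (adjusted p = 0.0132). The call was lost without control 2, without control 3 and without POMCMfn2KO 2 and 3 together, with adjusted p up to 0.0814, and the log2 difference stayed between 1.24 and 1.67 in all alternatives.

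Liver 5 was the highest POMCMfn2KO liver in 10 of the 11 macrophage markers and liver 4 the lowest in 8, so each marker was also set against Clec4f on the same array. On that relative scale Timd4 lay between -3.45 and -3.33 in controls and between -4.39 and -3.92 in POMCMfn2KO. Mpeg1 lay between 0.26 and 0.33 in controls and between -0.90 and -0.19 in POMCMfn2KO. Cd163 lay between -3.24 and -3.19 in controls and between -2.25 and -1.41 in POMCMfn2KO. Of the 10 markers, 8 had every POMCMfn2KO liver below every control on this scale, against 3.77% of all genes treated the same way, and Cd163 alone had every one above, against 1.66%. Adgre1 overlapped. Nothing is read from these shares. Clec4f was chosen as the reference after its values were seen, and its subtraction adds its own spread (SD 0.33 over POMCMfn2KO) to genes that do not follow it.

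**Figure D2:**
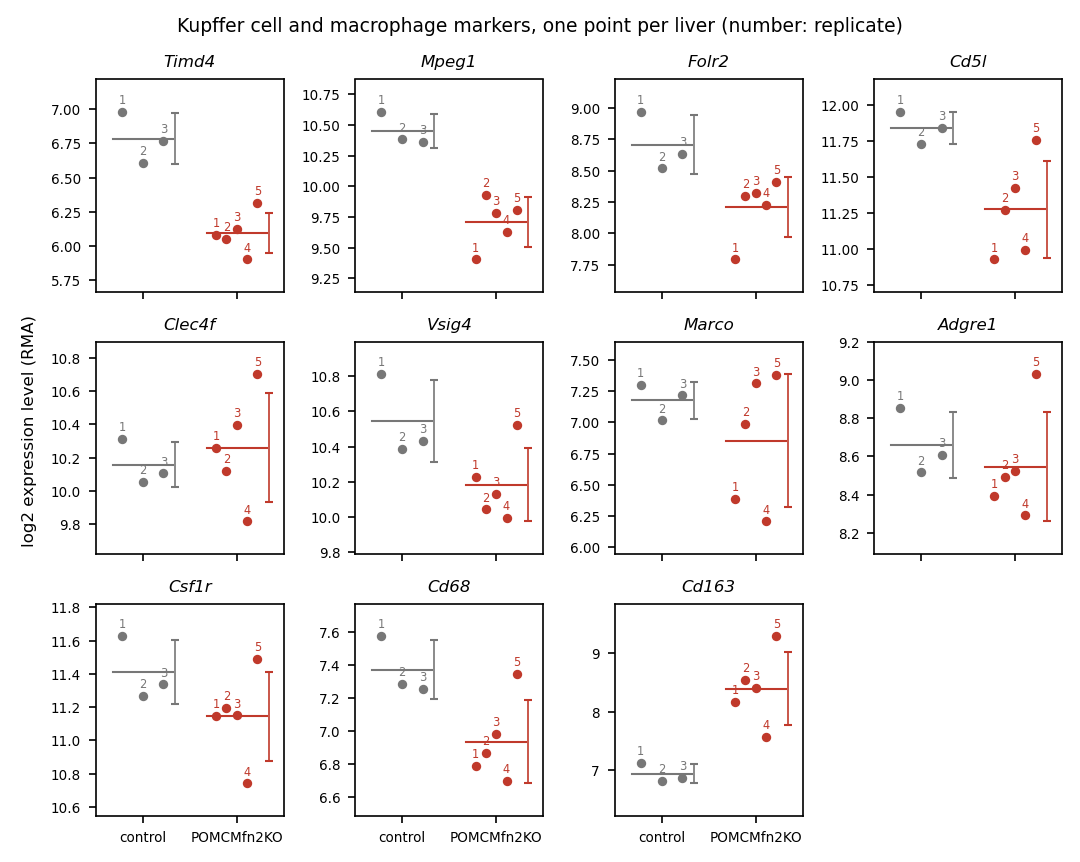
Log2 level of the 11 Kupffer cell and macrophage markers in each liver, controls in grey and POMCMfn2KO in red, with the replicate number above each point, the group mean as a line and the SD as a bar; each panel has its own vertical scale. Control 1 is the highest control in all 11 panels, and POMCMfn2KO 5 the highest POMCMfn2KO liver in 10.

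A wider list of 25 macrophage genes, named here for context, had 22 tested members. None of them rose and none fell in limma, against 7.02% and 10.9% of all genes tested. Of the 22, 5 had an unadjusted p under 0.05, against 3966 of all 11986 genes tested. The median difference of the 22 was -0.04, and 13 of 22 were below 0, against 54.2% of all genes. The members with the lowest p were Ctss, the lysosomal protease cathepsin S (-0.36, adjusted p = 0.0812), and Fcna, a ficolin of the lectin pathway of complement (0.34, adjusted p = 0.0879).

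The markers shared by myeloid cells and monocytes were mostly lower, and 2 of the 6 tested fell, against 10.9% of all genes tested. Tyrobp, the signalling adaptor DAP12, lay at 9.99, 9.62 and 9.74 in controls and at 9.36, 9.17, 9.54, 9.13 and 9.57 in POMCMfn2KO. The groups did not overlap, and the fall of 0.43 (1.35-fold, adjusted p = 0.0455) was lost when any liver but POMCMfn2KO 5 was left out. It was also lost without POMCMfn2KO 2 and 3 and with no filter on dim genes, and its adjusted p reached 0.184. Cybb, the catalytic subunit of the phagocyte NADPH oxidase, lay at 8.42, 8.10 and 8.25 in controls and at 7.64, 7.84, 7.71, 7.49 and 8.08 in POMCMfn2KO. It fell by 0.50 (1.42-fold, adjusted p = 0.0284), and its other probe sets above the dim level gave -0.18 and -0.44. Cybb no longer passed without any single control, without POMCMfn2KO 3, without 2 and 3 together or when its probe sets were averaged. Its adjusted p was then as high as 0.125.

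Lyz2, lysozyme, differed by -0.56 (adjusted p = 0.0989), with POMCMfn2KO 5 at 10.47 inside the control range of 10.23 to 10.63 and the other livers between 9.32 and 9.88. Fcer1g, the common gamma chain of Fc receptors, differed by -0.36 (adjusted p = 0.0742). Cx3cr1, the fractalkine receptor, differed by -0.28 (adjusted p = 0.0855), and Ccr2, the receptor that brings monocytes into tissue, by 0.21 (adjusted p = 0.257) with 3 of 5 POMCMfn2KO livers above every control. The other probe sets of Ccr2, all under the dim level, gave -0.24, -0.38 and 0.10. Ccr2 and Cx3cr1 were close to the dim level, with the POMCMfn2KO mean of Cx3cr1 just under it. The integrin gene Itgam was under the dim level in both groups (4.74 ± 0.06 and 4.62 ± 0.14). At such levels the array bounds what can be seen of monocytes.

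The MHC class II genes did not pass, and all 4 had the same highest and lowest liver. These genes encode the dimers that present peptides to CD4 T cells, and the invariant chain Cd74 that escorts them. H2-Eb1 lay at 9.45, 9.20 and 9.19 in controls and at 9.77, 8.97, 8.83, 8.98 and 8.67 in POMCMfn2KO. Cd74 lay at 8.35, 8.03 and 8.08 against 8.58, 7.92, 7.87, 7.88 and 7.59. H2-Aa lay at 10.55, 10.25 and 10.41 against 10.68, 10.24, 10.07, 10.20 and 9.95. In all 4 genes POMCMfn2KO 1 was the highest and POMCMfn2KO 5 the lowest of the 8 livers, so that liver 5, the highest for most macrophage markers, was the lowest here. H2-Ab1 lay at 8.73, 8.44 and 8.70 against 8.87, 8.50, 8.20, 8.27 and 8.15. The differences ran from -0.18 to -0.23, with adjusted p from 0.370 to 0.547. Without POMCMfn2KO 1 they ran from -0.29 to -0.41, and H2-Ab1 and H2-Eb1 passed (adjusted p = 0.0482 and 0.0200). Liver 1 was the highest of the 8 in these genes, so its removal enlarges the falls by construction. Nothing is read from these calls. Dimmer probe sets of H2-Ab1 gave 0.11 and 0.16. In them POMCMfn2KO 1 was again the highest liver, but control 2 and not POMCMfn2KO 5 was the lowest.

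H2-Ab1, H2-Aa and H2-Eb1 follow each other on chromosome 17 with no other protein-coding gene between them in RefSeq. Class II promoters are known for the X and Y boxes through which the regulator CIITA acts. The promoters of H2-Aa and H2-Eb1 are printed to show these boxes in 2 genes that were both highest in POMCMfn2KO 1 and lowest in POMCMfn2KO 5. Capitals mark the Y box CTGATTGG in both, the cAMP response element TGACGTCA of the X2 position in H2-Aa, and the X1 box of H2-Eb1, searched as GCAAC, any base and GATG and found as GCAACTGATG.
H2-Aa promoter, chr17:34287774-34288073, minus strand: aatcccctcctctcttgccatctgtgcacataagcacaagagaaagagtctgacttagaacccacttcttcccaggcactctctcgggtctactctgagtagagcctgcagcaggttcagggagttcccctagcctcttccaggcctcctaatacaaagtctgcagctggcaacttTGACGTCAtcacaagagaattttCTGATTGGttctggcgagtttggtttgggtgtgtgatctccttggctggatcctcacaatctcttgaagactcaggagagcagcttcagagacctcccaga
H2-Eb1 promoter, chr17:34305617-34305916, plus strand: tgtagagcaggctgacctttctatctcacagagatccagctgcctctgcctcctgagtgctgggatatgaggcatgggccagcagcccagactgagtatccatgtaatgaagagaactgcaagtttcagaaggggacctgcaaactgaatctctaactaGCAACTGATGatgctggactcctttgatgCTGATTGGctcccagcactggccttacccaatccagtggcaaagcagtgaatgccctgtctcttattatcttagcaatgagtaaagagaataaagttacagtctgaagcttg
The Y box began 51 bases before the RefSeq start in H2-Aa and 62 before it in H2-Eb1. On either strand it was in 4.1% of all promoters of the table, and among the 28 markers with a promoter in H2-Aa and H2-Eb1 only. TGACGTCA was in 1.79% and the X1 box in 0.192% of all promoters, and the motifs do not overlap in these windows.

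In the further class II list, Ifi30, a lysosomal thiol reductase of antigen processing, fell by 0.56 (from 9.31 ± 0.10 to 8.75 ± 0.15, adjusted p = 0.00586) and Lgmn, the asparaginyl protease legumain, fell by 0.37 (adjusted p = 0.0345). These were the 2 of 9 tested members that fell, and none rose, against 10.9% and 7.02% of all genes tested. The median difference of the 9 was -0.08.

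Of the 6 B cell and plasma cell markers, Ighm, Blnk and Jchain fell, Jchain having passed the filter on dim genes only through its level in the controls, and the 3 that mark the B cell surface most directly were dim in both groups. Ighm, the heavy chain of IgM, lay at 9.79, 9.23 and 9.02 in controls and at 7.42, 7.34, 7.63, 7.81 and 7.17 in POMCMfn2KO. The lowest control was 1.21 above the highest POMCMfn2KO liver. Ighm fell from 9.35 ± 0.40 to 7.47 ± 0.25, 3.66-fold (adjusted p = 0.000549). A second bright probe set of Ighm gave -1.63 and did not overlap either, whereas 3 others above the dim level gave -0.04, -0.06 and -0.09. The fall stands on 2 of the 5 Ighm probe sets above the dim level, and the mean over all 11 of its probe sets gave a difference of -0.36. Jchain, which joins IgM and IgA chains into polymers in plasma cells, lay at 7.59, 6.92 and 6.95 in controls and at 5.31, 5.70, 5.67, 6.29 and 5.99 in POMCMfn2KO. It fell (adjusted p = 0.00506) from 7.16 ± 0.38 to a mean of 5.79, just under the dim level of 5.80, so no fold is given.

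Blnk, the adaptor that links the B cell receptor to its kinases and is also made by macrophages, lay at 6.57, 6.68 and 6.67 against 5.92, 5.85, 6.19, 6.21 and 5.98. It fell from 6.64 ± 0.06 to 6.03 ± 0.16 (1.52-fold, adjusted p = 0.00403). Ighm, Jchain and Blnk were called in every alternative in which they were tested. The receptor subunits Cd79a (5.63 ± 0.07 and 5.59 ± 0.10) and Cd79b (5.68 ± 0.14 and 5.34 ± 0.21) and the surface antigen Ms4a1, CD20 (5.13 ± 0.22 and 5.14 ± 0.13), overlapped between the groups. In a further list of 19 named B cell and plasma cell genes, 8 could be tested. None fell, against 10.9% of all genes tested, and 1 rose, against 7.02%. It was Xbp1 (0.34, adjusted p = 0.0436), a factor of plasma cells that hepatocytes make as well. The tested member of that list with the next lowest p, the B cell kinase Btk, differed by -0.17 (adjusted p = 0.112), and the median difference of the 8 was -0.11. The falls of the immunoglobulin genes stand beside B cell surface genes under the dim level, and the part of B cell or plasma cell number in them was not tested.

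The neutrophil markers S100a8 and S100a9 both lay below every control in all 5 POMCMfn2KO livers. They encode the subunits of calprotectin, a calcium- and zinc-binding protein that fills the cytosol of neutrophils, and they are neighbours on chromosome 3. S100a9 lay at 7.56, 7.36 and 7.42 in controls and at 5.96, 5.71, 5.94, 5.83 and 5.98 in POMCMfn2KO. It fell from 7.45 ± 0.11 to 5.89 ± 0.12, 2.95-fold (adjusted p = 1.27e-05), to a level just above the dim level. S100a8 lay at 6.18, 6.22 and 6.45 against 4.36, 4.82, 5.16, 4.52 and 5.24. Its mean over all livers was under the dim level and it was not tested, and with no filter its difference of -1.47 had an adjusted p of 0.00189. A further list of neutrophil granule and receptor genes had 7 tested members. Of these 1, the granule protease gene Prtn3 (-0.47, adjusted p = 0.00320), fell and none rose, against 10.9% and 7.02% of all genes tested. The granule enzyme Mpo differed by -0.12, and the median difference of the 7 was -0.09.

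None of the 3 tested T and NK cell markers passed, with 1 at an unadjusted p under 0.05, against 3966 of all 11986 genes tested. Cd3e, a subunit of the T cell receptor complex, lay at 7.16, 7.04 and 7.06 against 6.90, 6.95, 7.01, 6.92 and 7.03, a narrow difference of -0.12 (adjusted p = 0.196) without overlap. Cd8a, the coreceptor of cytotoxic T cells, lay at 5.96, 5.98 and 6.17 against 6.01, 6.12, 5.89, 5.83 and 5.93, with an interval of -0.28 to 0.10. Ccl5, a chemokine of T and NK cells, lay at 6.65, 6.54 and 6.72 against 6.34, 6.06, 6.41, 6.06 and 6.67 and differed by -0.33 (adjusted p = 0.127). Nkg7, a membrane protein of cytotoxic granules, was dim (5.18 ± 0.15 and 4.95 ± 0.23). Of the further T and NK cell genes, 4 of 17 could be tested and none passed, with 0 at an unadjusted p under 0.05 and a median difference of 0.03. Of the dendritic cell genes, 5 of 11 could be tested and none passed, with 2 at an unadjusted p under 0.05 and a median of -0.13. All 5 differences were below 0, against 54.2% of all genes tested. Tcf4 (-0.15) and Batf3 (-0.15) had every POMCMfn2KO liver below every control, as did 16.5% of all genes tested.

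The markers carried by nearly all leukocytes were lower, and 2 of 3 fell, against 10.9% of all genes tested. Coro1a, an actin regulator of blood cells, lay at 7.25, 7.07 and 7.04 in controls and at 6.35, 6.25, 6.27, 6.63 and 6.75 in POMCMfn2KO, with no overlap. It fell by 0.67 (1.59-fold, adjusted p = 0.00867) and was called in every alternative in which it was tested. Laptm5, a lysosomal protein of leukocytes, lay at 8.78, 8.46 and 8.69 against 8.31, 7.95, 8.25, 8.03 and 8.50. It fell by 0.44 (1.35-fold, adjusted p = 0.0469), but POMCMfn2KO 5 overlapped the controls, and its other probe sets gave -0.02 to -0.23. Its call did not hold without any single control, without POMCMfn2KO 2, 3 or 4, without 2 and 3 together, with no filter on dim genes or over its averaged probe sets. Over these its adjusted p rose to 0.178. Ptprc, the phosphatase CD45 on all leukocytes, lay at 8.35, 8.01 and 8.23 against 7.53, 7.66, 7.84, 7.64 and 8.31 and missed the threshold (-0.40, adjusted p = 0.128). Only POMCMfn2KO 5 reached the controls for Ptprc. Without it, a removal that enlarges the fall by construction, the difference was -0.53 (adjusted p = 0.0141). With its probe sets averaged the difference was -0.23, and without control 1 it was -0.32 with the highest adjusted p of the alternatives, 0.348.

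**Figure D3:**
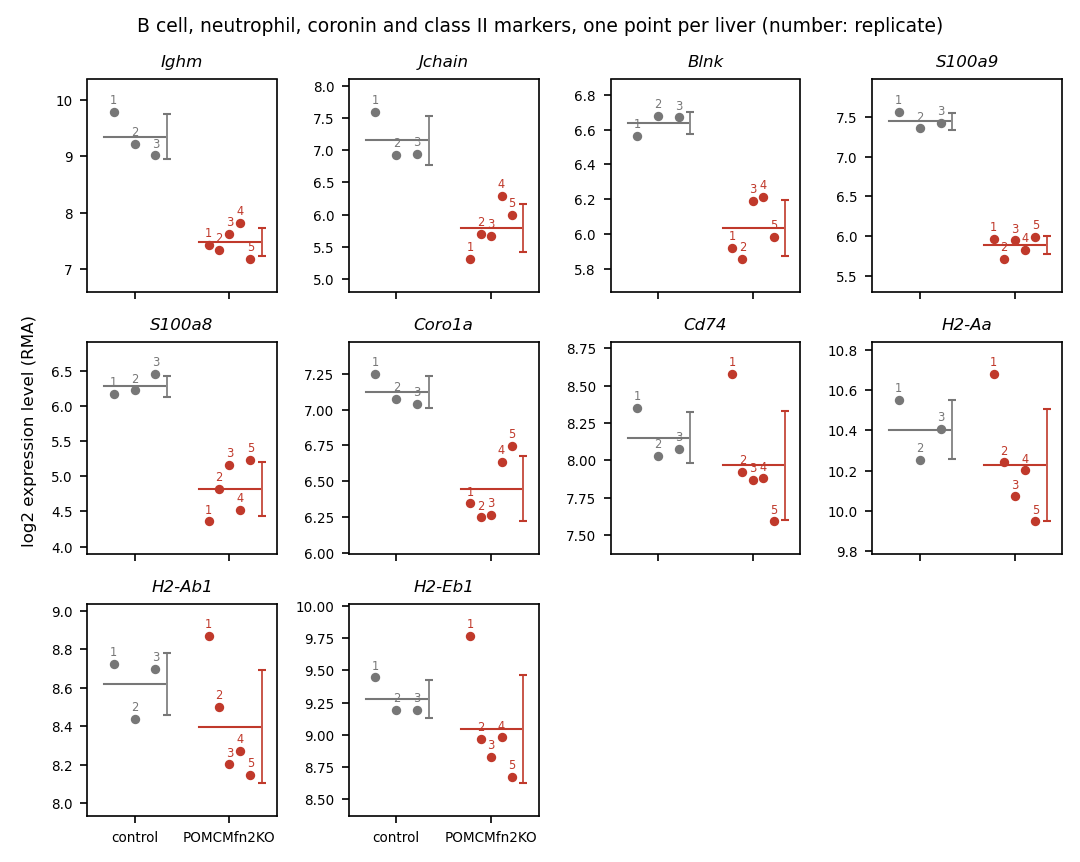
Log2 level in each liver of the B cell, neutrophil, coronin and class II markers described in the text, controls in grey and POMCMfn2KO in red, with the replicate number above each point, the mean as a line and the SD as a bar; each panel has its own vertical scale. The groups are apart for Ighm, Jchain, Blnk, S100a9, S100a8 and Coro1a, and POMCMfn2KO 1 is the highest and POMCMfn2KO 5 the lowest liver in all 4 class II panels.

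Of the 12 calls, 7 were kept in every alternative in which the gene was tested: Timd4, Mpeg1, Ighm, Jchain, Blnk, S100a9 and Coro1a. Jchain passed the filter on dim genes only through its controls. Timd4, Jchain, Blnk, S100a9 and Coro1a were not tested with genes below a mean of 7 left out, nor Coro1a with probe sets averaged. Folr2, Tyrobp, Cybb, Laptm5 and Cd163 lost their calls in at least 1 alternative. Without control 1, 2 or 3 the number of markers that fell was 7, and without POMCMfn2KO 3 it was 7. Without POMCMfn2KO 5, the highest POMCMfn2KO liver in 21 of the 31 tested markers, it was 18. Without POMCMfn2KO 2 and 3, the livers high in acinar genes, the same 7 falls passed and Cd163 did not. Over all genes tested, the share called was 6.84% to 7.2% with a control left out and 5.34% without POMCMfn2KO 2 and 3. It was 11.7% without POMCMfn2KO 3 and 16.3% without POMCMfn2KO 5, beside 18% with all livers.

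The controls differed among themselves more in these markers than in most genes. The SD over the 3 controls had a median of 0.16 over the 31 tested markers, beside 0.07 over all genes tested, and 29 of the 31 were above the median of all genes. An SD as large as the markers' median was reached by 7.19% of all genes tested. Genes of a like mean level, between 6.59 and 9.32, had a median control SD of 0.07. The spread was not particular to these markers. Further macrophage genes, endothelial genes and stellate cell and fibroblast genes had a median control SD of 0.15 each, and cholangiocyte genes of 0.23. Hepatocyte genes had 0.04 and the further B cell and plasma cell genes 0.07. Over the 5 POMCMfn2KO livers the median SD of the markers was 0.25, beside 0.13 over all genes tested. An SD from 3 arrays is imprecise, and these values are descriptions.

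**Figure D4:**
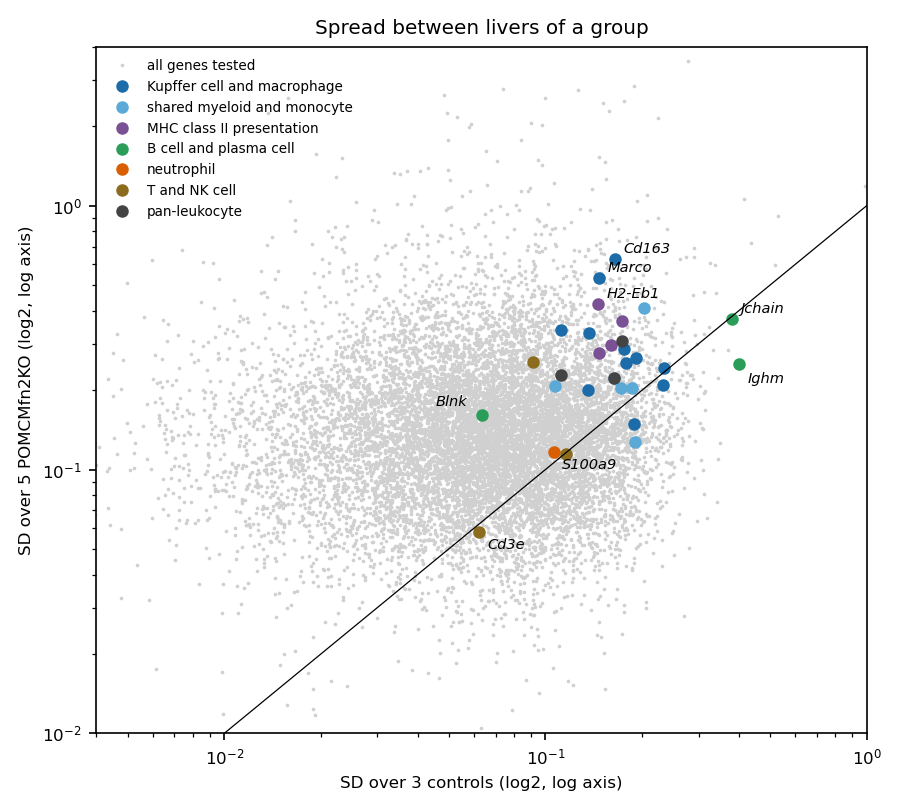
SD over the 3 controls (horizontal, log axis) and over the 5 POMCMfn2KO livers (vertical, log axis) of each gene, with all 11986 genes tested in grey, the 31 tested markers in colour by cell type, and the line where both are equal. Most markers lie to the right of the grey cloud's middle, with Ighm (0.40) and Jchain (0.38) the most variable markers among the controls.

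The spread among controls had a common direction. Control 1 was the highest control in 27 of the 31 tested markers, against 41.0% of all genes tested, and control 2 the lowest in 22, against 34.6%. The level in control 1 exceeded the mean of controls 2 and 3 by a median of 0.23 over the markers and of 0.02 over all genes tested. The excess was 0.67 for Ighm and 0.66 for Jchain, and 0.16 to 0.40 for the macrophage markers. Blnk, Cx3cr1 and Cd8a went the other way, with -0.11, -0.19 and -0.11. Control 1 was also the highest control in 17 of 22 further macrophage genes, in 9 of 11 genes of sinusoidal and vascular endothelium and in 7 of 10 of stellate cells and fibroblasts, and in 2 of 8 hepatocyte genes. Without control 1 the 7 kept falls passed, Cd163 still rose, and Folr2, Tyrobp, Cybb and Laptm5 did not pass. The same genes were also lost without control 2 and without control 3. The fits therefore do not single out the part of control 1 in the called genes.

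**Figure D5:**
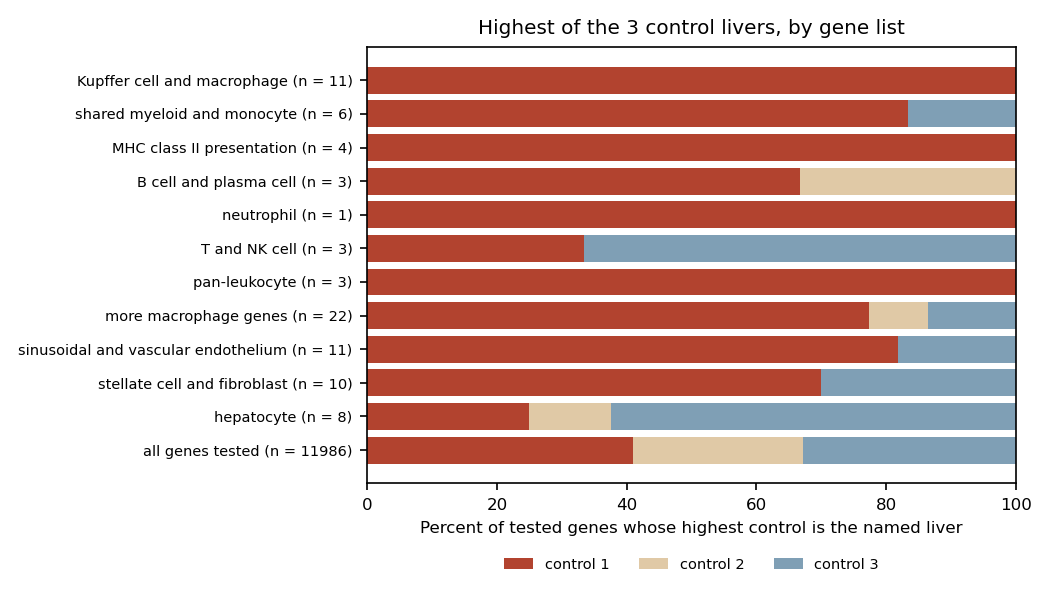
Share of the tested genes of each list (percent, horizontal) whose highest control was control 1, 2 or 3. Control 1 is the highest in 100% of the macrophage, class II and pan-leukocyte markers, in 2 of the 8 hepatocyte genes and in 41.0% of all genes tested.

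Among the genes of the endothelium next to these cells, the calls went up. Of 11 tested endothelial genes, 4 rose, against 7.02% of all genes tested, and none fell, against 10.9%. The median difference was 0.32, beside -0.02 over all genes tested. Every POMCMfn2KO liver lay above every control in 3 of the 11, against 12% of all genes tested. The rises included the scavenger receptor Stab2 (0.55, adjusted p = 0.0107) and the receptor Gpr182 (0.65, adjusted p = 0.0154), both typical of liver sinusoids. The mean level of the endothelial list ran from 8.30 to 8.51 in controls and from 8.41 to 8.84 in POMCMfn2KO, where liver 5 was the highest and liver 4 the lowest, as for the macrophage list (8.96 to 9.28 and 8.55 to 9.28). Of the other lists, 1 hepatocyte gene, Cps1, rose and 1, Asgr1, fell, 1 adipocyte gene, Fabp4, rose, and no stellate cell, cholangiocyte, acinar or erythroid gene passed. The part of the other cell types in the results on leukocyte markers was not tested.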

How the data were processed

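RNA from whole liver of 3 control and 5 POMCMfn2KO mice was measured on GeneChip arrays, 1 per mouse. The authors deposited log2 levels. RMA and the affy package are named in the submitters' processing notes, with versions not given in the sources used here. Array medians lay between 5.79 and 5.81, and precision is limited by how few arrays there are. Of 45101 probe sets, 34945 carried 1 gene symbol, 932 several and 9160 none, and 64 were controls. For each of 18193 genes the brightest probe set was kept. Dim genes, 6207 with a mean under 5.80 (the median over probe sets that are not controls), were left out.

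The other 11986 genes were fitted with limma 3.58.1 in R 4.3.3 (POMCMfn2KO minus control, 2-sided, Benjamini-Hochberg over all genes, threshold 0.05). The fit was tried on simulated data in which both groups had the same SD for a gene. In the real data the median SD was 0.07 in controls and 0.13 in POMCMfn2KO, and the simulation does not cover that inequality. The labels name 8 mice and say nothing of litters, so p-values measure the spread between these mice. The markers, lists and tests were chosen with earlier results of these data known. All markers are accounted for, and the 2 genes with the lowest p of each further list may be named. Same-numbered control and POMCMfn2KO arrays did not deviate together (correlations 0.04, 0.04 and -0.03), so the number was not used as a pairing. Alternatives changed the filter, probe set, scaling, variance model and arrays. Promoters came from RefSeq, GRCm38.p6. Plots used matplotlib 3.10.9 (Python 3.11.15).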

Additional observations from a re-analysis of the deposited data

Results flagged for a closer look

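Among the 5 POMCMfn2KO livers, 1 value stood far from the other 4 in 2 of the 37 markers, by a gap of more than 0.71 of the range. Chance gives such a gap in about 1 of 20 groups, and 2 of 37 is near that share, so nothing is read from the count. H2-Eb1 was 9.77 in POMCMfn2KO 1, with 8.98 as the nearest other value. Cd79a was 5.41 in POMCMfn2KO 5, with 5.62 as the nearest other value, all under the dim level.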

How the results depend on the processing

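Over 18 alternatives, no called marker changed direction. Against 11 markers that fell, 7 did with genes below a mean of 7 left out, where 21 markers were tested and Cd5l was newly called. These were Mpeg1, Folr2, Cd5l, Tyrobp, Cybb, Ighm and Laptm5. Timd4, Jchain, Blnk, S100a9 and Coro1a were not tested with that filter, so these are not the same 7 as the calls kept throughout. Without POMCMfn2KO 2 and 3 the number that fell was 7. Leaving out 1 liver at a time gave 7 to 18 that fell and 0 to 1 that rose, and without POMCMfn2KO 2 and 3 there were 0 that rose. With the replicate number as a block, 16 fell and 1 rose (1176 and 715 over all genes, where 1310 and 842 did without it), and the numbers do not pair the mice. POMCMfn2KO 4 and 5 have no control of the same number, so the differences of that fit came from livers 1 to 3 of each group alone. Its counts therefore cannot be set down to the block itself. The median of the B cell and plasma cell markers was -1.36, and it was -1.87 with the stricter filter, which left 1 gene, -0.61 with probe sets averaged, -0.47 with no filter, which added the 3 dim genes, and -1.60 with the block; without 1 liver it ran from -1.49 to -1.14. The median of the T and NK cell markers was -0.12, and -0.23 with probe sets averaged or the most variable one, each with 2 genes. That of the pan-leukocyte markers was -0.44, and -0.21 with probe sets averaged. Differences that did not pass changed sign for Clec4f (-0.0099 without POMCMfn2KO 5; -0.0099 to 0.212 without 1 liver) and H2-Ab1 (0.0161 with probe sets averaged); where not stated, the cause was not tested. Signals near the dim level limit what can be seen of monocytes, B cells, T cells and NK cells.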
